A study of Mus musculus with 12 samples.

Results

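The collagen chain genes of adult mouse cardiomyocytes with and without desmin, the muscle intermediate filament protein, were followed across 12 poly-A RNA libraries. Every gene whose symbol is Col, a number, the letter a and a number was taken as a member, which gave 44 of the 21493 genes listed, all 44 of them protein-coding. Cardiomyocytes were isolated by enzymatic perfusion from the hearts of 3-month-old mice that carried desmin (Des+/+) or lacked it (Des-/-) and that had undergone swimming exercise (swim) or had not (non-swim), with 3 libraries in each of the 4 groups. Per the study's methods, mice of both genotypes also carried GFP under the αMHC (Myh6) promoter on a 129SV background and were used independent of sex, and cells from several hearts went into each library, which makes every replicate a pool of animals. The gene is deleted in all cells of the animal, and the labels give no sorting step after the perfusion.

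Collagens are extracellular proteins in which chains wind around each other into a stiff helix, and each chain repeats glycine followed by a pair of other residues, often proline or hydroxyproline. Fibrillar chains build the load-bearing fibres of the heart's interstitium, type IV chains build the basement membrane sheet around each cardiomyocyte and vessel, type VI chains form beaded filaments near cell surfaces, and fibril-associated collagens (FACIT) decorate the fibres. In the heart, fibrillar collagens are made mainly by fibroblasts, and deposition of types I and III is the hallmark of fibrosis.

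The repeat that defines these genes is shown by exons of the most abundant fibrillar chains and of Col4a1, with the glycine codons of the repeat in capitals (GRCm38, coding strand, transcripts of GENCODE M21). The first is exon 8 of 51 of Col1a1 at chr11:94939904-94939957 (+), the next exon 8 of 52 of Col1a2 at chr6:4515481-4515534 (+), then exon 6 of 51 of Col3a1 at chr1:45325360-45325413 (+), and last exon 9 of 52 of Col4a1 at chr8:11244486-11244569 (-).
Col1a1: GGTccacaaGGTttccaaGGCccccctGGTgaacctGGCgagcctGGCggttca
Col1a2: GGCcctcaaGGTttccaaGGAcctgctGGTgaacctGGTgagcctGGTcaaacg
Col3a1: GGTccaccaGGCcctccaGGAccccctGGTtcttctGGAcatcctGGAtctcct
Col4a1: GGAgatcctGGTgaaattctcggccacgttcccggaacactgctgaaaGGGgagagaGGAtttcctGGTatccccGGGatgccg
Each fibrillar exon is 54 bases long and holds 6 such codons, 1 at every ninth base, while the 84-base Col4a1 exon breaks the repeat after its second glycine and takes it up again. Over the whole coding sequence, the repeat of Col3a1 ran for 344 glycine triplets without a break, Col1a2 for 339 and Col1a1 for 338. The longest unbroken run in Col4a1 was 40 triplets, and its repeat was split into 18 runs of 10 or more.

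Desmin reads checked the genotype labels. Des stood between 972 and 3645 CPM (counts relative to the TMM-scaled total of the library) in the 6 Des+/+ libraries and between 50.2 and 100.4 CPM in the 6 Des-/- libraries. Each library held between 4320819 and 12072443 reads in genes, and the Des-/- swim libraries were the shallowest, at 4320819 to 6521963. Of uniquely placed reads, 34.0% to 39.3% lay in no gene in Des+/+ non-swim and 45.9% to 50.4% in Des+/+ swim. In Des-/- this share was 52.3%, 49.0% and 34.2% in non-swim libraries 1, 2 and 3, and 57.2% to 64.5% in swim. Its bearing on collagen levels was not tested. The floor of detection was set at 3 counts, or 0.694 CPM (unscaled) in the shallowest library. Replicate 3 of both Des-/- groups stood apart in collagen reads: collagen genes took 1.69%, 1.70% and 5.45% of gene reads in the Des-/- non-swim libraries 1, 2 and 3, and 0.608%, 0.841% and 2.13% in the Des-/- swim libraries. In Des+/+ the share was 0.666% ± 0.168 (SD, n = 3) without and 0.683% ± 0.0922 (SD, n = 3) after swimming. The main results that rest on those libraries are given with and without them.

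**Figure D1:**
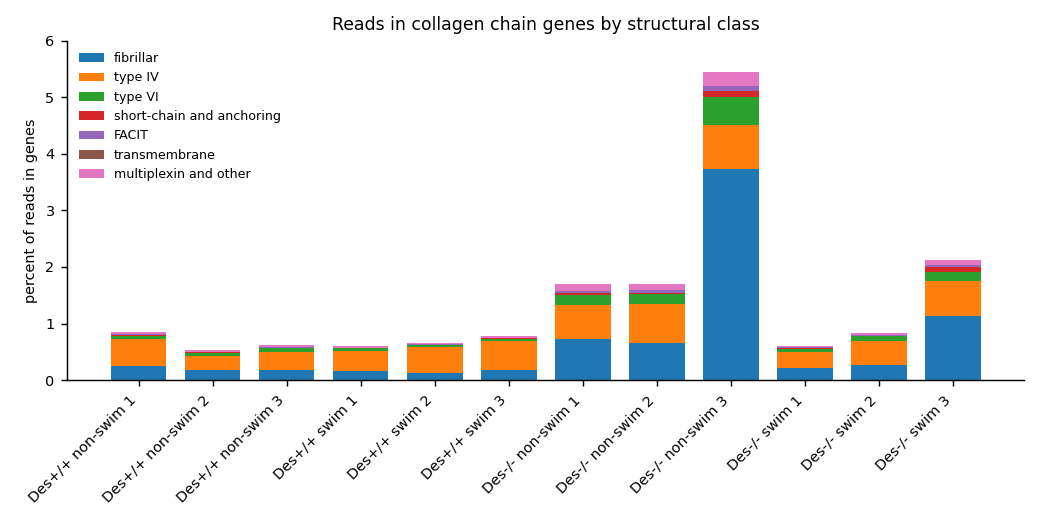
Percent of reads in genes that fell in collagen chain genes in each of the 12 libraries (x axis, group and replicate), stacked by structural class. The 6 Des+/+ libraries lie between 0.525% and 0.852%, and replicate 3 of the Des-/- non-swim group reaches 5.45%, of which most is fibrillar.

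Across the 12 libraries the highest levels per kb of exon belonged to the basement membrane chains Col4a1 at 368 ± 117 CPM per kb and Col4a2 at 289 ± 91.3 (SD, n = 12). They were followed by the fibrillar chains Col3a1 at 266 ± 447, Col1a1 at 209 ± 349 and Col1a2 at 118 ± 177 CPM per kb (SD, n = 12), then by Col6a1, Col15a1 and Col6a2. The SD of each of these fibrillar chains exceeded its mean, which that of Col4a1 and Col4a2 did not, so the positions of neighbours in this order lie within their spread. Within groups the order was not the same. Col4a1 ranked 1 and Col4a2 ranked 2 in both Des+/+ groups and in Des-/- swim, whereas Col3a1 ranked 1 and Col1a1 ranked 2 in Des-/- non-swim, at 721 and 558 CPM per kb on average against 500.1 for Col4a1. That order rested on library 3: Col3a1 read 275, 257 and 1631 CPM per kb in Des-/- non-swim libraries 1, 2 and 3 and Col4a1 420.3, 492 and 588, so Col4a1 was above Col3a1 in libraries 1 and 2. Taking the longest transcript as the length in place of the exon union kept the same 8 genes at the top and placed Col3a1 first.

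The make-up of collagen reads differed between the groups in the same sense. Type IV chains took 47.3% to 55.8% of collagen reads in the Des+/+ non-swim libraries and 57.7% to 69.1% in Des+/+ swim, but 14.4% to 40.8% in Des-/- non-swim and 29.3% to 51.7% in Des-/- swim. Fibrillar chains took 28.8% to 35.4%, 18.3% to 27.2%, 38.5% to 68.3% and 31.2% to 53.0% in the same order of groups. For both classes the non-swim libraries of the 2 genotypes did not overlap, and neither did the swim libraries.

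Of the 44 members, 38 passed the filter on low counts. The other 6 were Col2a1, Col6a4, Col9a1, Col10a1, Col19a1 and Col24a1, none of which exceeded 31 reads in any library. Col6a5, Col9a2, Col11a1, Col22a1 and Col26a1 would not have passed on the Des+/+ libraries alone, so they entered the test only through the group where they were higher, and Col17a1 would not have passed on the Des-/- libraries alone. All counts below are descriptions of the members that passed.

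Without swimming, 27 of the 38 members tested were called higher in Des-/- and 0 lower (edgeR's quasi-likelihood test, adjusted p under 0.05), against 32% of all 13158 genes called in either direction and 14% called higher. The median member log2 change was 1.67, beside 0.04 over all genes tested, and 35 of 38 changes were positive. Among the 33 members that pass the filter on Des+/+ libraries alone, 23 were called. In 30 members, the 27 called and Col4a1, Col4a2 and Col28a1, all 3 Des-/- libraries lay above all 3 Des+/+ libraries, against 23% of all genes separated in that direction and 47.9% in either. Leaving out replicate 3 of the Des-/- non-swim group gave 17 calls and a median of 1.27 (21.1% of all genes called). Leaving out Des+/+ non-swim replicate 3 gave 14 calls and a median of 1.74 (21.9% of all genes). Without Des+/+ non-swim replicate 2 there were 15 calls and a median of 1.86 (19.5% of all genes). In all 6 fits that each left out 1 of the libraries compared, 12 of the 27 were called: Col14a1, Col6a2, Col27a1, Col12a1, Col6a1, Col4a3, Col5a1, Col16a1, Col4a6, Col8a2, Col4a4 and Col18a1. In bulk RNA, more cells of a type and more RNA per cell cannot be told apart, which holds for every difference given here.

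**Figure D2:**
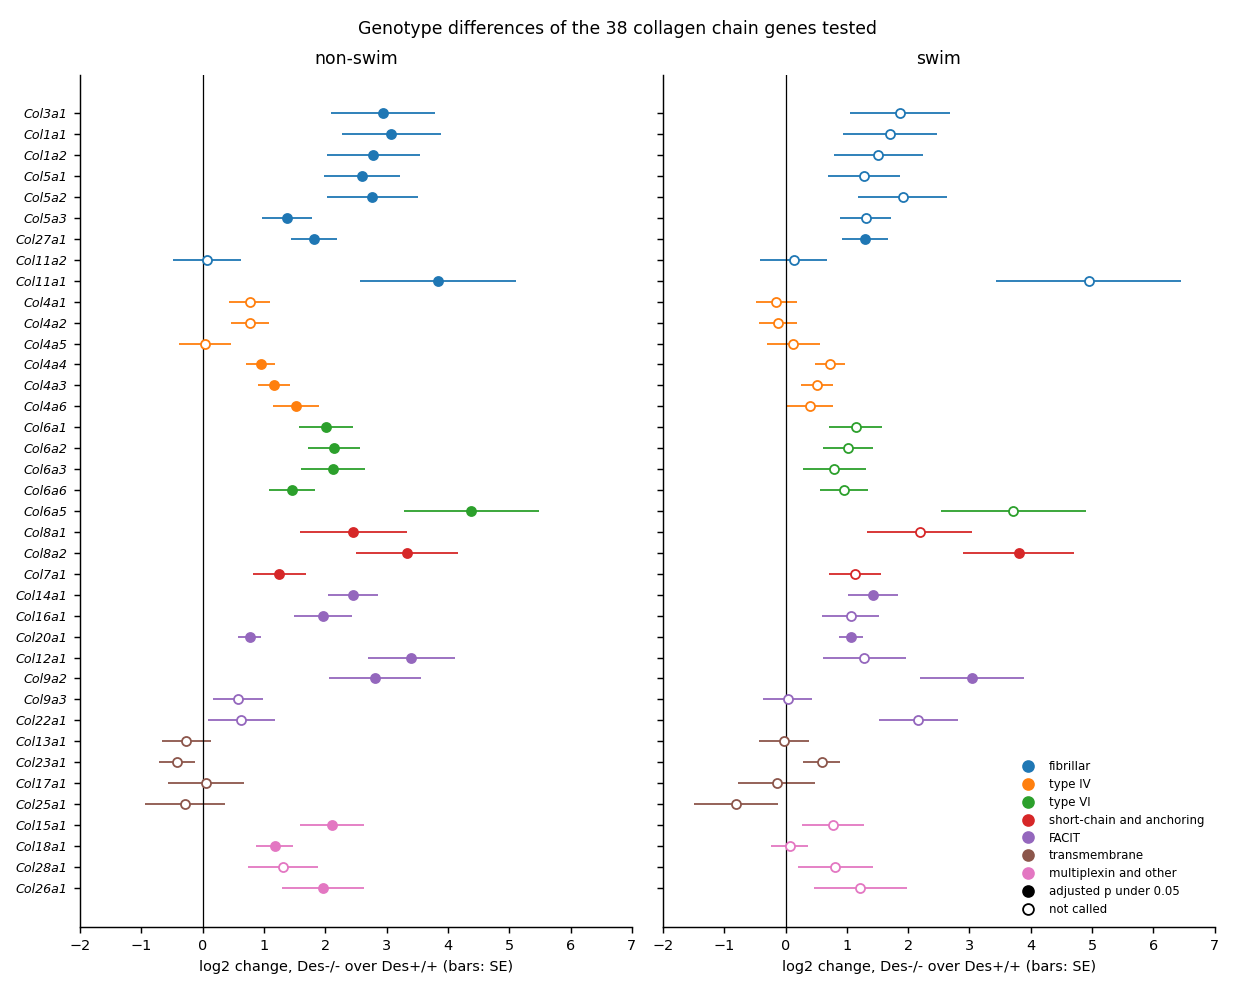
Log2 change between Des-/- and Des+/+ for the 38 collagen chain genes tested (rows, grouped by structural class), without swimming (left) and after swimming (right), with bars of 1 SE; filled points have an edgeR adjusted p under 0.05. Without swimming 27 points are filled, all to the right of 0, and after swimming 5 are.

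Of the fibrillar chains 8 of 9 tested were called, all higher, with a median log2 change of 2.77. Of all genes, 32% were called in either direction and 14% higher. Col11a1, among these 8, would not have passed the filter on the Des+/+ libraries alone. Without Des-/- non-swim library 3, 2 of 9 were called (Col5a1 and Col27a1) and the median was 1.40, beside 21.1% of all genes called. Without replicate 3 of both Des-/- groups 7 of 9 were called with a median of 1.47, beside 28% of all genes. Col3a1, the single chain of type III collagen, stood at 1182, 812 and 766 CPM in Des+/+ non-swim and at 2695, 2519 and 16013 CPM in Des-/- non-swim (libraries 1, 2 and 3). The groups did not overlap, and library 3 was far above the other Des-/- libraries. The log2 change was 2.94 ± 0.85 (SE, edgeR adjusted p = 0.0216), and without that library it was 1.51 and not called (edgeR adjusted p = 0.11). Without replicate 3 of both Des-/- groups it was 1.57 and called (edgeR adjusted p = 0.0018). Col1a1, which gives the major chain of type I collagen, read 466, 434 and 405 CPM against 1325, 1252 and 8404 CPM. Its log2 change of 3.07 ± 0.81 (SE, edgeR adjusted p = 0.0145) became 1.57 without library 3, where the call was lost (edgeR adjusted p = 0.0617). Col1a2, the partner chain, read 534, 572 and 481 CPM against 1474, 1315 and 8127 CPM, a log2 change of 2.78 ± 0.76 (SE, edgeR adjusted p = 0.0171) that was 1.40 and not called without library 3 (edgeR adjusted p = 0.0811). For all of these chains even the lower Des-/- libraries exceeded the highest Des+/+ library.

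The minor fibrillar chains of type V, which sit inside type I fibres and limit their width, followed: Col5a1 changed by 2.60 ± 0.62, Col5a2 by 2.77 ± 0.74 and Col5a3 by 1.37 ± 0.41 on the log2 scale (SE, edgeR adjusted p = 0.00896, 0.0155 and 0.0258). Without library 3 that of Col5a1 was called (edgeR adjusted p = 0.0244), and Col5a2 and Col5a3, at 1.33 and 0.87, were not. Col27a1 was the fibrillar chain with the smallest p, at 16.1, 18.2 and 17.3 CPM in Des+/+ and 50, 35.1 and 96.2 CPM in Des-/-, a log2 change of 1.81 ± 0.38 (SE, edgeR adjusted p = 0.00464). Col11a1 had a large change of 3.83 ± 1.27 (SE, edgeR adjusted p = 0.0383), but it rested on 1 library: its counts were 16, 28 and 388 in Des-/- and 10, 7 and 8 in Des+/+, and without the library with 388 reads the change was 1.42 (adjusted p = 0.34). Col11a2 was the fibrillar chain not called, at 0.07 ± 0.55 (SE).

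The promoter of Col3a1 is printed because it was the fibrillar chain with the highest mean level per kb. The 150 bases before its RefSeq start, chr1:45311388-45311537 (+, GRCm38.p6), hold a TATAAA, shown in capitals.
Col3a1: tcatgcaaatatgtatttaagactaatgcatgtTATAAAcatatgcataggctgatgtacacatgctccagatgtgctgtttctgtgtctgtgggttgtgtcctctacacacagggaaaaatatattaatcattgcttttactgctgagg
Over the 250 bases before each start, 38 windows of 35 members could be searched on both strands. TATAAA was in 13.2% of them and in 12.4% of all 32851 windows, CCAAT in 34.2% and 33.8%, and GGGCGG in 57.9% and 32.7%. These are matches of letters, not sites.

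The type IV genes lie in pairs that point away from each other from a shared start region. Of the 6 genes 3 were called, all higher, with a median log2 change of 0.86, beside 14% of all genes called higher. Col4a1 and Col4a2, the chains of the common basement membrane network, overlap by 22 bases at their annotated starts on chromosome 8, on opposite strands. Col4a1 stood at 2948, 1619.7 and 2025 CPM in Des+/+ non-swim and at 3137, 3676 and 4387 CPM in Des-/- non-swim. Col4a2 stood at 1972, 1229 and 1392 CPM against 2173, 2526 and 3154 CPM. Neither pair of groups overlapped, and the lowest Des-/- library was close to the highest Des+/+ library in both. The log2 changes of 0.76 ± 0.34 for Col4a1 and 0.77 ± 0.31 for Col4a2 (SE) were not called (edgeR adjusted p = 0.102 and 0.078). DESeq2 called both.

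Col4a3 and Col4a4, chains of the specialised network of the kidney glomerulus that are low in heart, start 71 bases apart on chromosome 1. Col4a3 read 9.78, 9.12 and 9.38 CPM in Des+/+ and 22.0, 24.8 and 16.7 CPM in Des-/-, a log2 change of 1.16 ± 0.26 (SE, edgeR adjusted p = 0.00685). Col4a4 read 26.4, 25.4 and 25.4 CPM against 57.6, 53.6 and 37.6 CPM, a log2 change of 0.95 ± 0.24 (SE, edgeR adjusted p = 0.0124). In both genes library 3 of Des-/- was the lowest of its group, and without it the changes were 1.31 and 1.12. The 71 bases between the pair, chr1:82586850-82586920 (+, GRCm38.p6), hold neither CCAAT nor TATAAA.
Col4a4 to Col4a3: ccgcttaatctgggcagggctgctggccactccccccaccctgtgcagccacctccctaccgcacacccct
In the pair on chromosome X, Col4a6 changed by 1.53 ± 0.37 (SE, edgeR adjusted p = 0.0105) and Col4a5 by 0.03 ± 0.42 (SE, edgeR adjusted p = 0.963), with 1308 bases between their starts. The difference between partners was not tested.

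All 5 tested type VI chains were called higher, with a median log2 change of 2.13, beside 14% of all genes called higher. Col6a5, among these 5, would not have passed the filter on the Des+/+ libraries alone. Col6a1 read 268, 228 and 249.7 CPM in Des+/+ non-swim and 605, 595 and 1799 CPM in Des-/- non-swim, a log2 change of 2.01 ± 0.44 (SE, edgeR adjusted p = 0.00638). Col6a2 read 289.8, 234 and 273 CPM against 780.1, 695 and 2041 CPM, a log2 change of 2.14 ± 0.42 (SE, edgeR adjusted p = 0.00376). These chains join with that of Col6a3, which changed by 2.13 ± 0.53 (SE, edgeR adjusted p = 0.011), into the type VI monomer. The groups were apart in all of them, and Col6a1 and Col6a2 kept their call without Des-/- library 3, at 1.27 and 1.48. Col6a5 changed by 4.38 ± 1.10 (SE, edgeR adjusted p = 0.012), or 3.15 with library 3 left out, with 6, 40 and 13 reads in Des+/+ and 181, 168 and 1105 reads in Des-/-.

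Among short-chain collagens, which form hexagonal nets, Col8a1 stood at 85.2, 96.1 and 76.2 CPM in Des+/+ and at 231, 193 and 991 CPM in Des-/-. It was called at 2.46 ± 0.87 (SE, edgeR adjusted p = 0.0487), and without library 3 it was 1.31 (adjusted p = 0.24). Its partner Col8a2 was scarce in Des+/+, at 2.59, 3.27 and 2.26 CPM, against 16.7, 13.6 and 51.4 CPM, a 10.1-fold difference (log2 change 3.33 ± 0.83, SE, edgeR adjusted p = 0.0113) that was 2.49 on the log2 scale without library 3 (edgeR adjusted p = 0.0381). Col7a1, the anchoring fibril chain, changed by 1.25 ± 0.43 (SE, edgeR adjusted p = 0.0461). Its call was lost without library 3, at 0.69.

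In the FACIT class 5 of 7 were called, all higher, beside 14% of all genes called higher. Of these 7, Col9a2 (called) and Col22a1 (not called) would not have passed the filter on the Des+/+ libraries alone. Col14a1, which binds decorin on fibril surfaces, had the smallest p of all members: it stood at 51.9, 49.6 and 59.1 CPM in Des+/+ and at 215, 206 and 459.9 CPM in Des-/-, a 5.49-fold difference (log2 change 2.46 ± 0.41, SE, edgeR adjusted p = 0.00159). Even the lowest Des-/- library was well above the highest Des+/+ library, and without library 3 the change was 1.98. Col16a1 read 57.2, 44.4 and 42.9 CPM against 132, 113 and 318 CPM, a log2 change of 1.96 ± 0.47 (SE, edgeR adjusted p = 0.00979). Col12a1, a fibril linker of tendon and of tissue under strain, rose from 3.77, 2.80 and 4.69 CPM to 13.7, 18.2 and 88.0 CPM (log2 change 3.40 ± 0.71, SE, edgeR adjusted p = 0.00468), and the change was 2.08 without library 3. Col9a2 and Col20a1 were also called, at 2.81 and 0.76, and without library 3 Col9a2 was 2.35 and not called (edgeR adjusted p = 0.0524).

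The transmembrane collagens, which stay anchored in the plasma membrane, were the class without a call: 0 of 4, with changes between -0.43 and 0.05. Of all genes, 32% were called in either direction. Col13a1, found at the neuromuscular junction and at cell adhesions, read 6.25, 7.48 and 9.02 CPM in Des+/+ and 6.70, 8.72 and 3.59 CPM in Des-/-. Col23a1 read 5.89, 10.6 and 6.59 CPM against 5.53, 6.68 and 4.99 CPM. The groups overlapped in all 4 genes, none had an unadjusted p under 0.05 and DESeq2 called 0, with SEs of 0.29 to 0.65 on the log2 scale. Of the multiplexins, basement membrane collagens whose ends release endostatin-type fragments, Col15a1 read 392, 200.1 and 318 CPM against 829.7, 899.7 and 2196 CPM, a log2 change of 2.11 ± 0.52 (SE, edgeR adjusted p = 0.0113). Col18a1 read 72.0, 70.6 and 68.5 CPM against 136, 133 and 208 CPM, a log2 change of 1.18 ± 0.30 (SE, edgeR adjusted p = 0.0133).

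**Figure D3:**
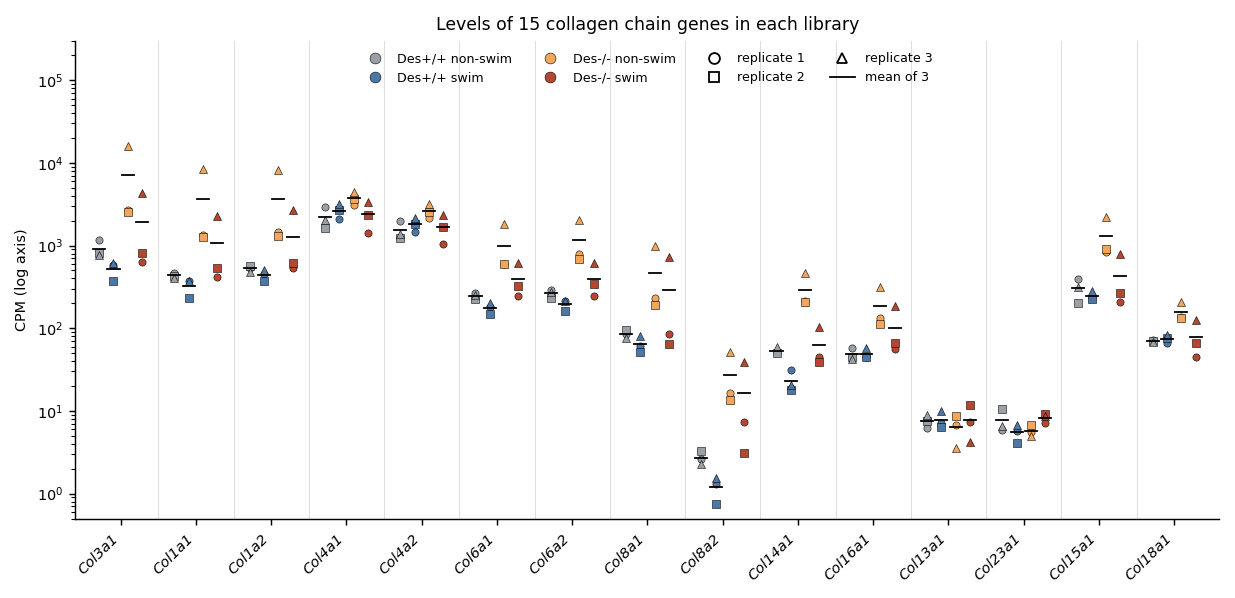
CPM on a log axis of 15 collagen chain genes in each library, by group (colour) and replicate (shape), with the mean of 3 as a line. Col4a1 and Col4a2 stay between 1031 and 4387 CPM in all groups, while Col3a1 spans 369.7 to 16013 CPM; replicate 3 of both Des-/- groups is highest of its group for most genes, but not for Col13a1 and Col23a1.

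Replicate 3 was not high by a common factor. In Des-/- non-swim, 30 of 38 members were higher in library 3 than in the mean of libraries 1 and 2, with a median ratio of 5.83 for fibrillar, 3.00 for type VI, 1.16 for type IV and 0.684 for transmembrane chains. In Des-/- swim the count was 34 of 38, and the medians were 3.99, 2.17, 1.74 and 0.404. Of the 38 members, 26 had their highest level of all 12 libraries in Des-/- non-swim library 3. With replicate 3 of both Des-/- groups left out, 24 members were called higher in Des-/- without swimming (28% of all genes called) and the median change was 1.34.

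**Figure D4:**
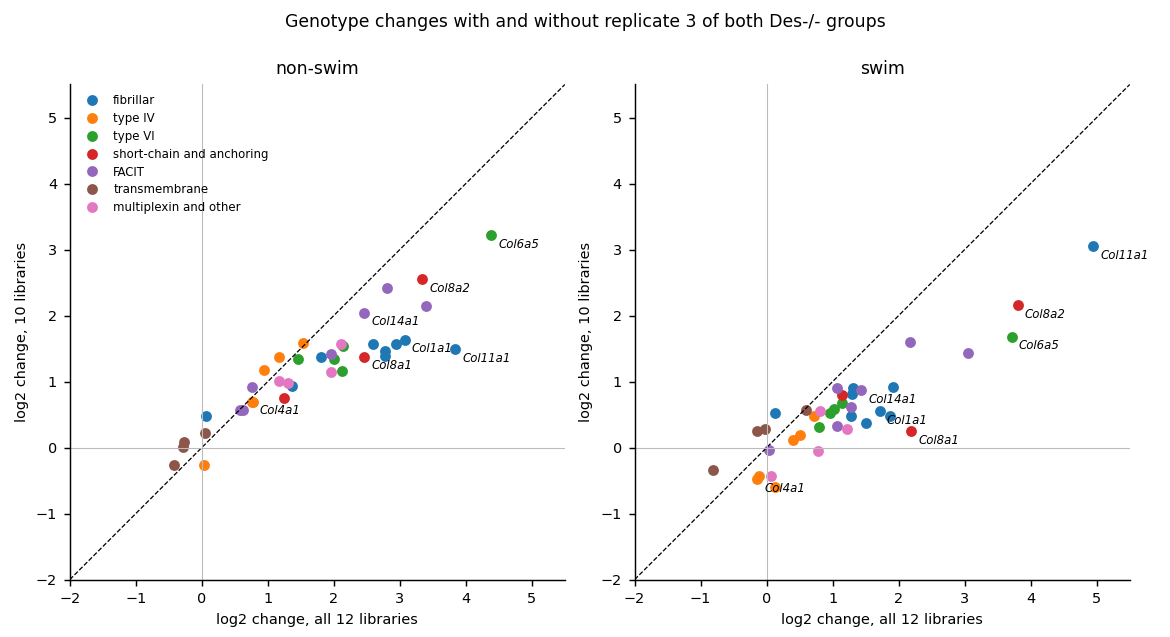
Log2 change between Des-/- and Des+/+ of each tested member in the fit to all 12 libraries (x axis) and in the fit to the 10 libraries left without replicate 3 of both Des-/- groups (y axis), without swimming (left) and after swimming (right); the dashed line marks equal values. Most fibrillar chains fall below the line, and type IV chains lie near it without swimming.

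After swimming, 5 of 38 members were called higher in Des-/- and 0 lower, against 10.6% of all genes called in either direction, 5.01% higher and 5.57% lower. Among the 33 members that pass the filter on Des+/+ libraries alone, 4 were called, since Col9a2 would not have passed there. The median member change was 1.06, beside 0.02 over all genes, and 33 of 38 were positive. The median was 0.52 without Des-/- swim replicate 3, and without replicate 3 of both Des-/- groups it was 0.50 with 7 members called (11.9% of all genes). In 21 members the groups did not overlap, all with Des-/- higher, against 17.3% of all genes separated in that direction, 18.6% in the other and 35.9% in either. All 5 were also called without swimming, where the libraries compared are different ones but the estimate of spread is shared. Col20a1, a FACIT chain, stood at 11.1, 10.5 and 12.2 CPM in Des+/+ swim and at 20.3, 21.4 and 29.1 CPM in Des-/- swim, a log2 change of 1.07 ± 0.19 (SE, edgeR adjusted p = 0.013). Col8a2 stood at 1.30, 0.749 and 1.57 CPM against 7.25, 3.06 and 39.4 CPM, a log2 change of 3.80 ± 0.90 (SE, edgeR adjusted p = 0.0263). Col9a2, at 3, 3 and 2 reads in Des+/+ swim and 4, 6 and 41 in Des-/- swim, changed by 3.04 ± 0.85, Col14a1 by 1.43 ± 0.41 and Col27a1 by 1.30 ± 0.37 (SE, edgeR adjusted p = 0.0426, 0.0456 and 0.0471). Without Des-/- swim library 3 only Col20a1 was called, at 0.89, and the changes of the others were 2.14 for Col8a2, 1.44 for Col9a2, 0.86 for Col14a1 and 0.80 for Col27a1.

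The abundant chains were not called after swimming. Col3a1 stood at 588, 369.7 and 622 CPM in Des+/+ swim and at 636, 821 and 4299 CPM in Des-/- swim. Its groups were just apart, and the log2 change was 1.87 ± 0.81 (SE, edgeR adjusted p = 0.148), or 0.47 without Des-/- swim library 3. Col1a1 read 369, 235 and 374 CPM against 417, 530.3 and 2251 CPM, with a log2 change of 1.71 ± 0.77 (SE, edgeR adjusted p = 0.157), or 0.54 without that library. Col4a1 overlapped, at 2099, 2719 and 3140.5 CPM against 1417, 2366 and 3396 CPM, with a log2 change of -0.15 ± 0.33 (SE). The count of 5 members called after swimming depended on single libraries. The share of all genes called, 10.6% in the main fit, changed too. The count was 0 without Des+/+ swim replicate 3 (0.55% of all genes). It was 1 without Des+/+ swim replicate 1 (4.19%), Des+/+ swim replicate 2 (6.11%) or Des-/- swim replicate 3 (4.97%). Without Des+/+ non-swim replicate 1, 2 or 3 it was 2 (8.53%, 10.2% and 6.95%). It was 3 without Des-/- non-swim replicate 1 (8.6%) or Des-/- swim replicate 2 (4.74%), and 16 without Des-/- non-swim replicate 3 (16.1%). The non-swim libraries are not compared here but enter the shared estimate of spread.

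By edgeR on all 12 libraries, swimming moved no member past the threshold in either genotype. In Des+/+, 0 of 38 were called by edgeR, with 3 at an unadjusted p under 0.05 and 0.0912% of all genes called, and the median change was -0.28, beside -0.08 over all genes. In 12 members all swim libraries lay below all non-swim libraries and in 3 above, against 18.7% and 12.5% of all genes. DESeq2 called Col14a1 lower (6.17% of all genes called), and so did edgeR with replicate 3 of both Des-/- groups left out (adjusted p = 0.0114, 5.62% of all genes called), in both cases 1 of 38 members. Col14a1 stood at 51.9, 49.6 and 59.1 CPM without and at 31.2, 17.9 and 20.5 CPM after swimming, with no overlap (log2 change -1.21 ± 0.40, SE, edgeR adjusted p = 0.143).

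In Des-/-, 0 of 38 were called by edgeR, with 14 at an unadjusted p under 0.05 and 0.0228% of all genes called. Of the changes, 31 of 38 were negative, with a median of -0.76 beside -0.01 over all genes. Leaving out 1 library moved that median between -0.32 (without Des-/- non-swim replicate 3) and -1.51 (without Des-/- swim replicate 3). In 7 members all swim libraries lay below all non-swim libraries and in 2 above, against 9% and 10.4% of all genes, and 19.4% in either direction. DESeq2 called 4 lower, namely Col14a1, Col6a2, Col6a3 and Col15a1, against 2.58% of all genes called by it. Col14a1 fell from 215, 206 and 459.9 CPM to 44.9, 39.1 and 103 CPM by DESeq2's test, and edgeR gave a log2 change of -2.23 ± 0.41 (SE) with an adjusted p of 0.133. With replicate 3 of both Des-/- groups left out, edgeR called 11 members lower after swimming in Des-/-: Col6a1, Col18a1, Col1a1, Col6a2, Col14a1, Col3a1, Col5a1, Col15a1, Col1a2, Col6a3 and Col8a1, against 0.545% of all genes called. Leaving out replicate 3 of the Des-/- swim group alone gave 2 calls, Col18a1 and Col14a1 (0.382% of all genes). Col18a1 read 136, 133 and 208 CPM without and 45.5, 66.0 and 125 CPM after swimming, and the groups did not overlap. The interaction, the difference of the swimming change between genotypes, was called in 0 of 38 by edgeR (3 at an unadjusted p under 0.05) and in 0 by DESeq2, against 0% of all genes by edgeR and 2.49% by DESeq2.

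Ratios between chains were compared per library, since they do not depend on the scaling of the libraries. In all, 12 tests were made, on 6 ratios and both factors, by exact two-sided permutation within the other factor (400 arrangements, smallest p = 0.005), with Benjamini-Hochberg adjustment over the 12.
The ratio of Col1a1 to Col1a2 counts averaged 0.824 ± 0.0584 in Des+/+ non-swim, 0.723 ± 0.0881 in Des+/+ swim, 0.962 ± 0.0681 in Des-/- non-swim and 0.830 ± 0.0481 in Des-/- swim (SD, n = 3). The mean log2 ratio was higher in Des-/- by 0.21 (p = 0.015 by exact permutation, adjusted 0.045). Swimming gave a log2 difference of -0.20 (p = 0.015 by exact permutation, adjusted 0.045), and both shifts had the same sign in both levels of the other factor. Without replicate 3 of both Des-/- groups the differences were 0.18 and -0.18, and neither was called (exact permutation p = 0.07 and 0.05, adjusted 0.168 and 0.15). With 100 arrangements for genotype and 120 for swimming, the smallest p that remain are 0.01 and 0.0167, so both p lay above their floors. For 1 test alone the smallest adjusted p are 0.12 and 0.2, so the reduced tests cannot settle stability. The ratio of Col3a1 to Col1a1 was lower after swimming, with a log2 difference of -0.32 (exact permutation p = 0.01, adjusted 0.045), from 2.10 ± 0.379 to 1.61 ± 0.0484 in Des+/+ and from 1.98 ± 0.0686 to 1.66 ± 0.216 in Des-/- (SD, n = 3), and the difference was -0.38 without replicate 3 of both Des-/- groups. With genotype its log2 difference was -0.02 (exact permutation p = 0.83).

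The ratio of Col1a1 to Col4a1, a fibrillar chain over a basement membrane chain, was higher in Des-/-, by a log2 difference of 1.60 (exact permutation p = 0.005, which is the lowest that 400 arrangements allow, adjusted 0.045). It was 0.158 to 0.268 in Des+/+ non-swim and 0.341 to 1.92 in Des-/- non-swim, and 0.0866 to 0.176 in Des+/+ swim and 0.224 to 0.663 in Des-/- swim, without overlap within either swimming state. Without replicate 3 of both Des-/- groups the difference was 0.99 (exact permutation p = 0.02, where 0.01 is the smallest possible). Of the 6 ratios, that of the type IV partners had the narrowest range: Col4a1 over Col4a2 lay between 1.32 and 1.49 in all 12 libraries, with log2 differences of -0.02 for genotype (exact permutation p = 0.66) and 0.01 for swimming (exact permutation p = 0.91). Col6a1 over Col6a2 lay between 0.775 and 1.01 and differed by -0.02 with genotype (exact permutation p = 0.73). Col5a1 over Col5a2 differed by -0.27 with genotype (exact permutation p = 0.075, adjusted 0.18). It was 0.908 to 1.11 in Des-/- swim, below every other library but replicate 3 of Des-/- non-swim, at 1.11.

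**Figure D5:**
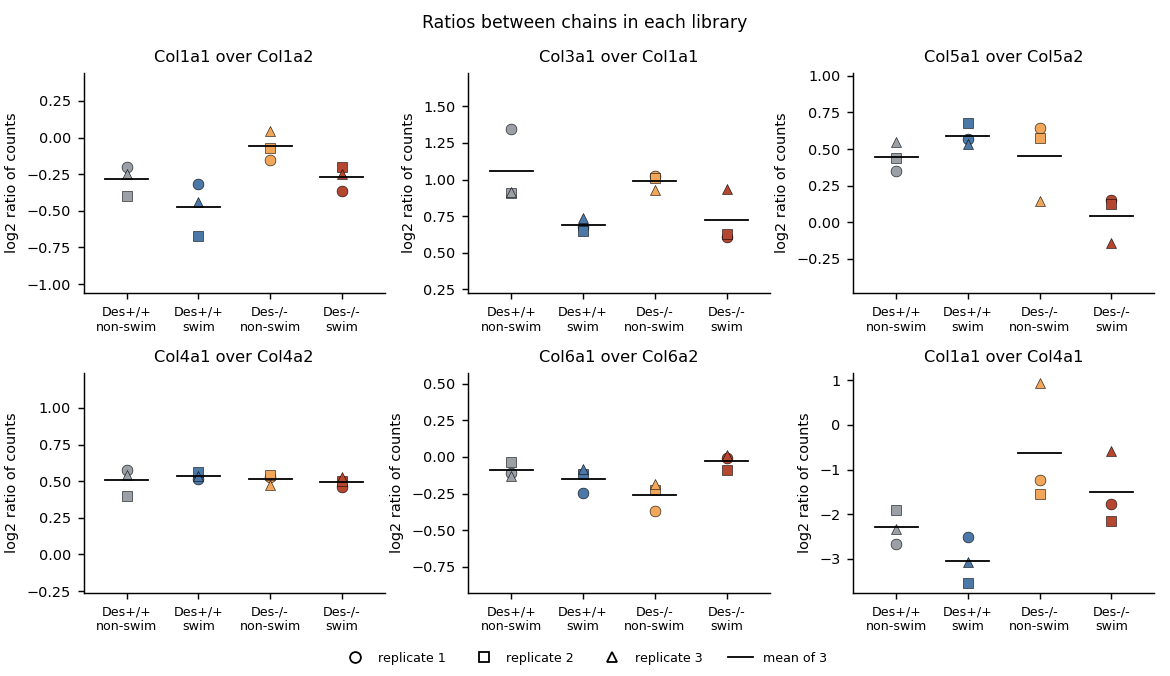
Log2 ratio of counts between 2 chains in each library, by group (x axis) and replicate (shape), with the mean of 3 as a line. Col4a1 over Col4a2 is level across groups, between 1.32 and 1.49 before the log, while Col1a1 over Col4a1 is higher in the Des-/- libraries of each swimming state.

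Genes that modify, fold and cut collagen chains were described from a list of 25, of which 24 were tested. Without swimming 13 were called higher and 1 lower in Des-/-, with a median log2 change of 0.79, beside 32% of all genes called in either direction and 14% higher. Without Des-/- non-swim library 3 the counts were 7 and 0, and without replicate 3 of both Des-/- groups 12 and 0. The smallest p-values belonged to Bmp1, the procollagen C-proteinase (1.54 ± 0.28, SE), Crtap, a part of the prolyl 3-hydroxylation complex (0.89 ± 0.16), Pcolce, which enhances the C-proteinase (1.99 ± 0.37), P3h3 (1.34 ± 0.28), Adamts2, the procollagen N-proteinase (2.46 ± 0.58), and Pcolce2 (1.05 ± 0.28), with edgeR adjusted p between 0.00241 and 0.0142. P4ha2, a catalytic subunit of prolyl 4-hydroxylase, was the gene called lower, at -0.71 ± 0.19 (SE, edgeR adjusted p = 0.0173). Serpinh1, the collagen chaperone HSP47, was not called (0.44 ± 0.46, SE, edgeR adjusted p = 0.498). After swimming 4 were called higher (Pcolce2, P3h2, Pcolce and P3h3) and P4ha2 was again called lower, at -1.07 ± 0.20 (SE, edgeR adjusted p = 0.013), beside 10.6% of all genes called. Without Des-/- swim library 3 the counts were 0 higher and 1 lower.

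Of 10 collagen receptors, 4 were called higher without swimming and 0 lower. In either direction that is near the 32% of all genes called, while 14% of all genes were called higher. Without Des-/- non-swim library 3, 2 receptors were called, beside 21.1% of all genes in either direction. Ddr2, the discoidin receptor of fibroblasts, changed by 0.87 ± 0.17 and Mrc2, an endocytic collagen receptor, by 2.29 ± 0.53 (SE, edgeR adjusted p = 0.00402 and 0.00819). Lair1, an inhibitory receptor of leukocytes, changed by 3.69 ± 1.03 and Itga11, a fibroblast integrin subunit, by 1.47 ± 0.48 (SE, edgeR adjusted p = 0.0187 and 0.0359). Itga1 and Itgb1, whose products form a collagen-binding integrin, were not called, at 0.11 ± 0.19 and -0.09 ± 0.19 (SE). After swimming Itga11 was called, at 1.75 ± 0.50 (SE, edgeR adjusted p = 0.0486), with overlapping libraries. This 1 of 10 is again near the share of all genes called in either direction, 10.6%, while 5.01% were called higher.

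Lists of cell type markers were compared between the genotypes in the same fits, and some lists differed while others did not. Without swimming, 14% of all genes were called higher in Des-/- and 18% lower. All 10 cardiomyocyte markers were present, and without swimming all 10 were called lower in Des-/- (median log2 change -2.13). Their summed level was 68618 to 101528 CPM in Des+/+ non-swim and 6338 to 30737 CPM in Des-/- non-swim, lowest in library 3. Of 14 fibroblast markers 10 were called higher (median 1.21), with a summed level of 5467 to 6912 CPM in Des+/+ non-swim and 9673 to 14079 CPM in Des-/- non-swim. The 13494 CPM of library 3 was not the highest of its group, unlike the collagens. Macrophage markers were called higher in 7 of 8 (median 2.74), with a summed level of 129.6 to 192 CPM in Des+/+ non-swim and 430.2, 249 and 2247 CPM in Des-/- non-swim libraries 1, 2 and 3, so library 3 was highest here as well. Without it, 0 of 8 macrophage markers were called (median 1.24), 7 of 14 fibroblast markers were called higher and 9 of 10 cardiomyocyte markers lower. In that fit 21.1% of all genes were called in either direction. By edgeR, endothelial markers were called in 0 of 8 (median -0.06, 0 at an unadjusted p under 0.05), epicardial markers in 0 of 5 (median 1.85, 1 at an unadjusted p under 0.05) and Schwann cell markers in 0 of 6 (median 0.10, 0 at an unadjusted p under 0.05). Of 8 mural markers 1 was called lower (median -0.44), beside 18% of all genes called lower.

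After swimming the cardiomyocyte median was -0.80 with 1 of 10 called lower, beside 5.57% of all genes called lower. Summed levels were 32868 to 53778 CPM in Des+/+ swim and 15870 to 26860 CPM in Des-/- swim. The fibroblast median was 0.72 with 5 of 14 called higher, beside 5.01% of all genes, at 5388 to 6252 CPM against 8370 to 10988 CPM. The macrophage median was 1.21 with 0 of 8 called by edgeR and 0 at an unadjusted p under 0.05, and library 3 of Des-/- swim was highest at 866 CPM. Without that library, 2 fibroblast and 0 cardiomyocyte markers were called, beside 4.97% of all genes. Defining fibroblast markers were above 0 in every group: Pdgfra averaged 91.1 CPM in Des+/+ non-swim and 165 CPM in Des-/- non-swim, and Dcn averaged 1012 and 1868 CPM. The part of these cell types in the collagen differences was not tested.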

How the data were processed

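Poly-A RNA of 12 pools of adult mouse cardiomyocytes was measured. The deposited values were raw read counts for each gene. The authors aligned the reads to GRCm38 (mm10) with HISAT2 2.2.1, sorted them with SAMtools 1.13 and counted with HTSeq in reverse-strand mode, as the submitters' processing notes and the study's methods have it. The annotation release is not given in the sources used here. The kit named in the labels does not keep strand, whereas that in the study's methods does. All HTSeq summary rows, which hold the reads not assigned to a gene for any reason, were left out. They made up 52.4% to 78.8% of each file's total. Of the members, 10 share exon bases with a gene on the opposite strand. Col3a1, Col7a1 and Col20a1 share exon bases with one on the same strand. The counts of all these members are less certain.

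The members and lists were chosen with earlier results of these data known. The main test was the quasi-likelihood test of edgeR 4.0.16 in R 4.3.3 (filterByExpr, TMM scaling, 4 group means over all 12 libraries, 8 residual degrees of freedom), with DESeq2 1.42.0 as an alternative. Benjamini-Hochberg adjustment covered all 13158 genes tested, and a call is an adjusted p under 0.05. CPM values are 1e+06 times the count over the TMM-scaled total. SEs are the log2 change divided by the root of F. Ratios added 0.5 to each count. Values of every library were given for the 8 members highest per kb, the 2 highest of each structural class and any called for swimming. Genes of the collagen-making and receptor lists were named where called, at most 6 each by smallest p. Other genes were named after their values were seen. Alternatives were other scalings, no filter, DESeq2, the study's filter (unadjusted p), a replicate block, the 6 libraries compared, and leaving out libraries. Leaving out replicate 3 of both Des-/- groups was planned with those libraries known to stand apart. Libraries with the same number deviated together in Des-/- swim against non-swim (correlations 0.365, 0.316 and 0.602), a pairing seen in the data and not given by the design. Elsewhere they did not. The replicate block fitted 1 factor for the numbers across all 4 groups, so it did not pair the Des-/- libraries alone, and no such paired test was run. The main edgeR fit and the permutation tests left the numbers out. Promoter windows came from RefSeq and exons from GENCODE M21 transcripts. The fit was tested on simulated data with independent libraries. None of those stood apart over many genes, so that test does not cover this feature of the data. Floors cover counting error only.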

Additional observations from a re-analysis of the deposited data

How the results depend on the processing

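The share of all genes called, in either direction, follows each count of members in brackets. Without swimming, 27 members were called higher in Des-/- with DESeq2's size factors (32.3%) or no filter (22.5%), and 28 with upper-quartile scaling (34.4%). The count was 26 with the replicate block (31%) and 24 in the 6 libraries compared (26.5%). It was 23 by DESeq2 (36.4%), which gave 6 members no adjusted p, and 30 by the study's filter on unadjusted p (32%). Leaving out 1 library at a time gave 14 to 27 (19.5% to 34.4%). After swimming the count was 10 by DESeq2 (17.7%), 18 by the study's filter (17.6%) and 3 in the 6 libraries compared (8.66%). It was 0 to 16 with 1 library left out (0.55% to 16.1%), and the replicate block gave 5 (9.95%). Swimming in Des+/+ gave 1 call by DESeq2 (6.17%) and 2 by the study's filter (10.3%). It gave 1 without replicate 3 of both Des-/- groups (5.62%) and 1 in the 6 libraries compared (2.25%). With 1 library left out it gave 0 to 0 (0% to 1.17%). Swimming in Des-/-, the comparison in which same-numbered libraries deviated together, gave 0 with the replicate block (0.0152%), which spans all 4 groups. It gave 4 by DESeq2 (2.58%), 13 by the study's filter (8.6%) and 11 without replicate 3 of both groups (0.545%). With 1 library left out it gave 0 to 2 (0% to 0.382%). The interaction gave 3 by the study's filter (13.1%). The replicate block moved no count of member calls by over 1.5 times, while members with an unadjusted p under 0.05 for the interaction went from 3 to 7 and the share of all genes called for swimming in Des+/+ from 0.0912% to 0.144%. Upper-quartile scaling moved the median of all genes from 0.04 to 0.14 without swimming and from 0.02 to 0.12 after it. Without replicate 3 of both Des-/- groups, Col1a1 over Col1a2 differed by 0.18 with genotype and -0.18 with swimming, Col3a1 over Col1a1 by -0.38 with swimming, Col1a1 over Col4a1 by 0.99 with genotype, and Col4a1 over Col4a2 by -0.013 with swimming, all on the log2 scale, in tests whose smallest adjusted p for 1 test alone is 0.12 or 0.2. With 1 library left out, the genotype difference ranged from 0.17 to 0.25 for Col1a1 over Col1a2, from -0.067 to 0.057 for Col3a1 over Col1a1, from -0.043 to 0.00266 for Col4a1 over Col4a2, from -0.048 to 0.00410 for Col6a1 over Col6a2 and from 1.21 to 1.84 for Col1a1 over Col4a1, and the swimming difference from -0.24 to -0.15, from -0.37 to -0.24 and from -0.022 to 0.024 for the first 3. Ratio tests called on all 12 libraries kept their sign but lost their call 45 times over all alternatives. The smallest adjusted p found by exact permutation with 1 library left out was 0.03. Of the members whose changes the report gives, those whose direction turned were not called: after swimming Col15a1 was -0.053 without replicate 3 of both Des-/- groups, Col18a1 -0.43 there and -0.013 with the replicate block, and Col13a1 0.28 there and 0.070 with upper-quartile scaling; without swimming Col13a1 was 0.089 there, Col4a5 -0.26 there and -0.087 with the replicate block, and Col11a2 -0.13 with the replicate block. With 1 library left out, the change after swimming ranged from -0.49 to 0.12 for Col4a1, -0.44 to 0.14 for Col4a2, -0.062 to 1.11 for Col15a1, -0.43 to 0.34 for Col18a1 and -0.45 to 0.28 for Col13a1, and that without swimming from -0.57 to 0.021 for Col13a1, -0.33 to 0.28 for Col4a5 and -0.17 to 0.41 for Col11a2. The cause was not tested, except that fits to fewer libraries have fewer residual degrees of freedom. The 6 members not tested had at most 31 reads in any library, and whether they were absent or below detection was not tested.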
